A study of Glycine max with 5 samples.

Results

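SEP1, MADS28 and NMH7 are soybean (Glycine max) MADS box genes, and 5 probe sets of the Affymetrix Soybean Genome array carry 1 of these symbols alone. They are 5 of the 37593 soybean probe sets in the deposited table, and of the 8677 that the array annotation pairs with a single gene symbol. SEP1 and MADS28 have 1 probe set each and NMH7 has 3, so the NMH7 values share a gene and are not independent of each other. The genes were chosen by the difference between pollen and sporophytic tissues on these same arrays, so their differences are given as a description. Where a fit over all probe sets calls them, the call is part of that description and no evidence about these genes.

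Mature pollen grains (3 arrays) were compared with sporophytic tissues of 10-day-old seedlings (2 arrays), both from the cultivar Bragg. Plants for pollen grew under 16 hours of light, were moved to 12 hours to induce flowering, and gave their pollen from anthers rubbed on coverslips, with the remaining tissue taken off before freezing. The seedling RNA was a mixture of organs, named as stems, roots and leaves in the methods and as leaves and stems in the results text of the study, so a level in it is an average over organs. The labels call the samples biological replicates, and how many plants gave each one is not stated.

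MADS box proteins are transcription factors, and some of them set the identity of floral organs. In the model worked out in Arabidopsis and snapdragon, these act as complexes. B class proteins, the APETALA3 (AP3) and PISTILLATA types, take part in those that specify petals and stamens. E class proteins, the SEPALLATA (SEP) types, take part in the complexes of every whorl. The gene table of assembly Glycine_max_v4.0, matched by gene ID for all 5 probe sets, gives MADS29 as another name of SEP1, and AGL9L-1 and AGL9L-2 as other names of MADS28. AGL9 is the older name of SEPALLATA3 in Arabidopsis. NMH7 is named after a MADS box gene described from root nodules of alfalfa, of the AP3 type. The study's lists of transcripts up- or down-regulated in pollen matched 2 of the 3 NMH7 probe sets to Arabidopsis AP3. These lists named no other probe set as AP3, AGAMOUS, SEPALLATA or MADS, and they leave out transcripts that did not differ. The study's count of transcription factor families up-regulated in pollen also holds a MADS gene.

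All values are log2 signals from Robust Multiarray Averaging (RMA), made by the authors. A linear signal of 100, the minimum that the study's methods asked of a pollen-specific transcript, is 6.64 on the log2 scale. On a pollen array 18.4 to 19.9% of probe sets reached it, and on a sporophytic array 33.7 to 35.9%, and the medians of the arrays differed by -1.15 on average, pollen minus sporophytic tissues. Over all probe sets the median log2 difference, pollen minus sporophytic tissues, was -0.22. Among probe sets that passed limma's test, 35.4% were higher in pollen, against 58.3% after quantile normalization of the soybean probe sets and 67.1% with equal array medians, which moved the median difference by 0.34 and 1.15. Leaf markers (light-harvesting proteins, Rubisco activase and carbonic anhydrase) had a summed linear signal of 2115 to 2368 on the pollen arrays and of 138187 to 412921 on the sporophytic arrays. Of their 36 probe sets 33 were lower in pollen, where 34.5% of all probe sets were. A signal of 100 was reached by 6 of the 36 on any pollen array and by 32 on any sporophytic array. Pollen markers, which the study listed on these arrays, summed to 472200 to 493719 in pollen and to 174 to 190 in sporophytic tissues over 20 probe sets. No probe set was found under the listed names of anther wall or tapetum genes, so a share of anther tissue in the pollen samples was not tested with transcripts. The study itself assessed the purity and viability of its pollen by microscopy and a fluorescein diacetate test.

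NMH7, the B class type gene, had the largest difference of the 3 genes. Its probe set Gma.11106.1.S1_a_at (NMH7 a) had log2 signals of 8.49, 9.31 and 9.13 on pollen arrays 1, 2 and 3, and of 2.16 on both sporophytic arrays. These are linear signals of 358, 634 and 560 in pollen and of 4.47 and 4.46 in sporophytic tissues. Every pollen array lay above every sporophytic array, with a gap of 6.33 log2 units between the nearest arrays of the groups. The means were 8.97 ± 0.43 (SD, n = 3) and 2.16 ± 0.00 (SD, n = 2), a log2 difference of 6.82 (standard error 0.29). In a tissue mixture, fewer cells with a transcript and less of it per cell cannot be told apart.

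The probe set Gma.11106.2.S1_at (NMH7 b), made for another expressed sequence of the gene, gave nearly the same pattern. Its log2 signals were 8.59, 9.59 and 9.43 in pollen and 2.47 and 2.49 in sporophytic tissues. The log2 difference was 6.72 (standard error 0.36), with group means of 9.20 ± 0.54 (SD, n = 3) and 2.48 ± 0.01 (SD, n = 2). Pollen array 1 was the lowest of the pollen arrays for both probe sets, at -0.49 and -0.61 log2 units from the group mean.

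The probe set Gma.11106.1.S1_at (NMH7 c) had a smaller difference than the other NMH7 probe sets. Its log2 signals were 7.07, 7.43 and 6.86 in pollen, close above the level of a signal of 100, and 3.13 and 3.13 in sporophytic tissues. The means of 7.12 ± 0.29 (SD, n = 3) and 3.13 ± 0.00 (SD, n = 2) differ by 3.99 (standard error 0.20), which is 2.83 log2 units less than the difference of NMH7 a. Here array 3 and not array 1 was the lowest of the pollen arrays. NMH7 a and NMH7 b lay 0.625 log2 units apart as Euclidean distance over the 5 arrays, and each lay over 5 times as far from NMH7 c, at 3.55 and 3.80. The 3 probe sets carry the same gene ID, and NMH7 a and NMH7 c come from the same expressed sequence. The sequences of the probes were not used here, and signal from near-identical gene copies, which soybean has for many genes, was not tested.

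All sporophytic signals of NMH7 were far under 100, and the size of the measured difference depends on these dim signals. Set against a signal of 100 in place of the measured sporophytic values, pollen was at least 5.03-fold higher for NMH7 a, at least 5.90-fold for NMH7 b and at least 1.39-fold for NMH7 c. All 3 NMH7 probe sets reached a signal of 100 on every pollen array and on no sporophytic array, as did 4.29% of all probe sets. Probe sets differ in how strongly they respond to their transcript, so a place among all probe sets describes the array and does not order the transcripts. On the pollen arrays NMH7 a and NMH7 b lay above 90.3 to 93.3% of all probe sets, and NMH7 c above 81.7 to 84.4%. On the sporophytic arrays NMH7 a lay above 1.63 and 1.64% of probe sets, NMH7 b above 8.94 and 9.52%, and NMH7 c above 25.6 and 25.5%.

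SEP1, the SEPALLATA type gene, was dim in both groups. Its log2 signals on probe set GmaAffx.76494.1.S1_at were 5.46, 4.56 and 5.37 on pollen arrays 1, 2 and 3, against 2.77 and 2.82 for the seedling samples. Linear signals were 43.9, 23.5 and 41.3 in pollen and 6.81 and 7.05 in sporophytic tissues, so no array reached 100. The groups did not overlap, and pollen array 2, which had the highest NMH7 signals, had the lowest SEP1 signal. The means were 5.13 ± 0.50 (SD, n = 3) and 2.79 ± 0.04 (SD, n = 2), a log2 difference of 2.33 (standard error 0.33). As both groups stayed under 100, no fold is given. In pollen SEP1 lay above 71.3, 55.4 and 68.1% of the probe sets of the array, and in sporophytic tissues above 18.4 and 19.8%.

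MADS28, the other SEPALLATA type gene, had the smallest difference of the 5 probe sets. Its log2 signals on probe set GmaAffx.52757.1.S1_at were 3.68, 3.57 and 4.39 in pollen and 2.58 and 2.61 in sporophytic tissues. Pollen array 3 stood above the other pollen arrays, and the lowest pollen array was 0.96 log2 units above the highest sporophytic array. The means of 3.88 ± 0.45 (SD, n = 3) and 2.59 ± 0.02 (SD, n = 2) differ by 1.29 (standard error 0.30). Linear signals of 11.9 to 21.0 in pollen and of 5.96 and 6.10 in sporophytic tissues stayed far under 100. In pollen MADS28 lay near the middle of the array, above 41.9, 38.3 and 53.0% of probe sets, and in sporophytic tissues above 12.4 and 13.4%.

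**Figure D1:**
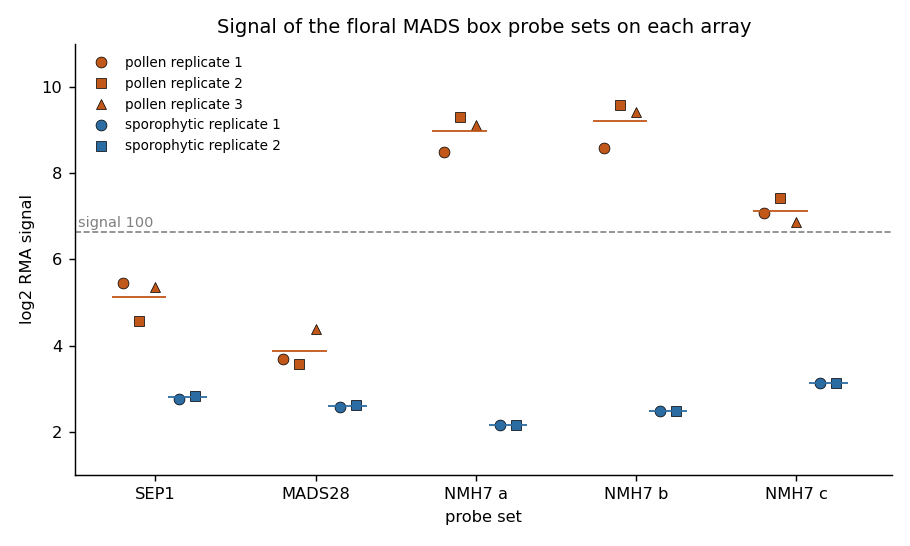
Log2 RMA signal (y axis) of the SEP1, MADS28 and NMH7 probe sets (x axis) on the 3 pollen arrays (orange) and the 2 sporophytic arrays (blue), with a marker for each replicate number and a line at each group mean. The dashed line marks a linear signal of 100, which only the NMH7 probe sets reached, from 6.86 to 9.59 on the pollen arrays.

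In limma's fit over all soybean probe sets (adjusted p under 0.05), 5 of the 5 probe sets were called higher in pollen, where 18.9% of all probe sets were. All 5 were higher on every pollen array than on every sporophytic array, as were 36.4% of all probe sets. As the genes were chosen on this contrast, nothing is read from either count. The differences of NMH7 a and NMH7 b lay above those of 99.2% of all probe sets, that of NMH7 c above 96.8%, that of SEP1 above 93.2% and that of MADS28 above 87.7%. The call of MADS28 was lost without pollen array 1 (1.39), pollen array 2 (1.44), sporophytic array 1 (1.27) or sporophytic array 2 (1.30), and with array weights 2 of the 5 probe sets were called, NMH7 a and NMH7 b.

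**Figure D2:**
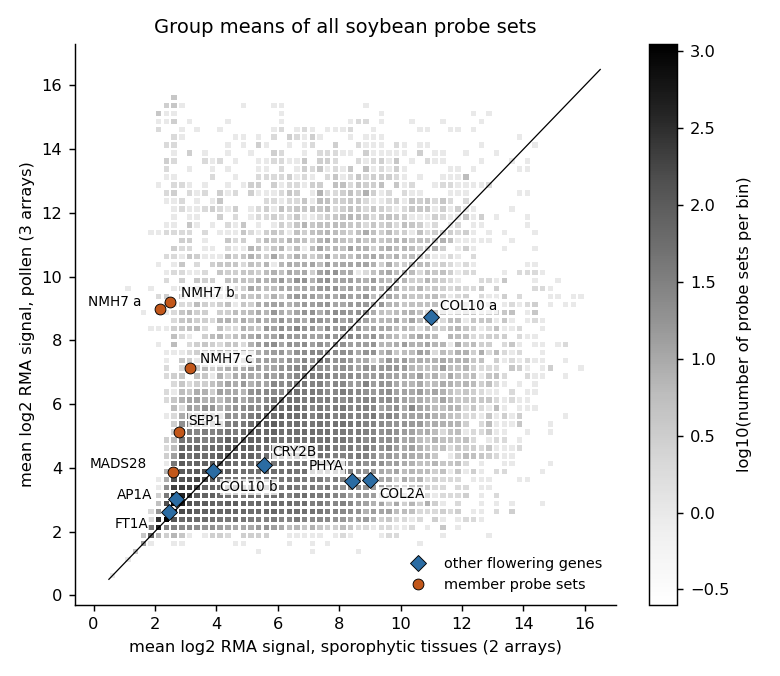
Mean log2 RMA signal in sporophytic tissues (x axis, 2 arrays) and in pollen (y axis, 3 arrays) of all 37593 soybean probe sets, shaded by the log10 number of probe sets per bin, with the line of equal means. The SEP1, MADS28 and NMH7 probe sets (orange circles) lie at the left edge, at sporophytic means of 2.16 to 3.13, while other flowering genes (blue diamonds) lie under the line or at most 0.33 above it.

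The arrays of a group differed in unlike ways for these genes. The sporophytic arrays were 0.051 log2 units apart or less for all 5 probe sets, while over all probe sets the difference between them had an SD of 1.06. Probe sets at the same dim level, with a sporophytic mean within 0.25 of the probe set, had a median gap between the arrays of 0.083 around SEP1, 0.044 around MADS28, 0.014 around NMH7 a and 0.034 around NMH7 b. Around NMH7 c the median gap was wider, at 0.237, and 1.8% of these probe sets had a smaller gap than NMH7 c itself. These are gaps between dim signals, and the standard errors given above pool them with the wider spread of the pollen arrays. In pollen the arrays were spread more widely than was usual at the same level for SEP1, MADS28, NMH7 a and NMH7 b. The SD of SEP1 over the pollen arrays (0.50) was larger than that of 88.1% of the 2804 probe sets with a pollen mean within 0.25, and that of MADS28 (0.45) was larger than in 93.3% of 3398. For NMH7 a (0.43) and NMH7 b (0.54) these shares were 86.9% and 92.4%, and for NMH7 c (0.29) the share was 55.9%. The pollen arrays did not rank alike for the 3 genes. Array 1 was the lowest for NMH7 a and NMH7 b and the highest for SEP1, and array 2 was the highest for all NMH7 probe sets and the lowest for SEP1 and MADS28. Array 3 lay above the group mean for SEP1 (0.24), MADS28 (0.51), NMH7 a (0.15) and NMH7 b (0.23), and under it for NMH7 c (-0.26).

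Among other genes with flowering symbols, PHYA and COL2A were lower in pollen and COL10, CRY2B and FT1A did not pass the test. A list of such symbols matched 6 probe sets for 5 genes, light receptors and members of the CONSTANS and FT families. They were picked by symbol alone, and their own role in flowering was not tested. In limma's test 0 of the 6 were higher, where 18.9% of all probe sets were, and 2 were lower, a share near the 34.5% of all probe sets. At an unadjusted p under 0.05, 1 was higher and 3 were lower, against 8298 and 13828 of all 37593 probe sets. With equal array medians 2 were higher, where 20047 of all probe sets were. With quantile normalization 1 was higher and 1 was lower, against 13917 and 9940 of all probe sets. The median log2 difference of the 6 was -1.85, against -0.22 over all probe sets. The annotation names few flowering genes, and unnamed probe sets were not searched.

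PHYA, the light receptor phytochrome A, was lower in pollen. Its log2 signals were 3.52, 3.36 and 3.88 in pollen, against 7.82 and 9.03 for the seedling samples. PHYA fell by 4.84 on the log2 scale (standard error 0.44, adjusted p = 0.0020 from limma), and it kept this call without each array in turn. With array weights PHYA did not pass (-4.74). COL2A, a relative of the flowering regulator CONSTANS, had 3.32, 3.44 and 4.07 in pollen and 10.69 and 7.32 in sporophytic tissues. The sporophytic arrays of COL2A were thus 3.37 log2 units apart, and both lay above all pollen arrays. It fell by 5.39 (standard error 1.14, adjusted p = 0.022 from limma), and the call was lost without pollen array 1 (-5.25), pollen array 2 (-5.31) or pollen array 3 (-5.62). The call of COL2A was also lost with quantile normalization (-4.46), with array weights (-5.2) and with the replicate number as a block (-5.62).

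COL10, another CONSTANS relative, did not pass on either probe set. Its brighter one, Gma.2010.1.S1_a_at (COL10 a), had log2 signals of 8.11, 9.05 and 9.03 in pollen, all above a signal of 100, and of 12.55 and 9.42 in sporophytic tissues, a log2 difference of -2.26 (standard error 1.09). It was called lower without sporophytic array 2, where the difference was -3.83. On its other probe set, GmaAffx.30801.1.S1_at (COL10 b), all 5 arrays of COL10 lay between 3.89 and 3.90. CRY2B, a cryptochrome that senses blue light, had 4.10, 4.11 and 4.10 in pollen and 4.79 and 6.29 in sporophytic tissues, a difference of -1.43 (standard error 0.50), and it was called lower without sporophytic array 1 (-2.18) or sporophytic array 2 (-0.68). FT1A, of the family of the mobile flowering signal FT, had 2.59 to 2.64 in pollen and 2.45 on both sporophytic arrays, a difference of 0.16 (standard error 0.05) that passed only without sporophytic array 1 (0.16) or sporophytic array 2 (0.17) among the arrays left out. A left-out sporophytic array leaves 1 array in that group, which is then assumed to vary as pollen does.

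AP1A, a floral MADS box gene of the APETALA1 type, is not on the list and was added after its values were seen. Its log2 signals were 2.90, 3.29 and 2.90 in pollen and 2.81 and 2.58 in sporophytic tissues, so the groups did not overlap but lay only 0.09 apart. The log2 difference of 0.33 (standard error 0.17) did not pass limma's test (adjusted p = 0.19). With equal array medians the difference was 1.48 (standard error 0.2) and passed. It did not pass in the other settings that held AP1A. AP1A, like SEP1 and MADS28, reached a signal of 100 on none of the 5 arrays.

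**Figure D3:**
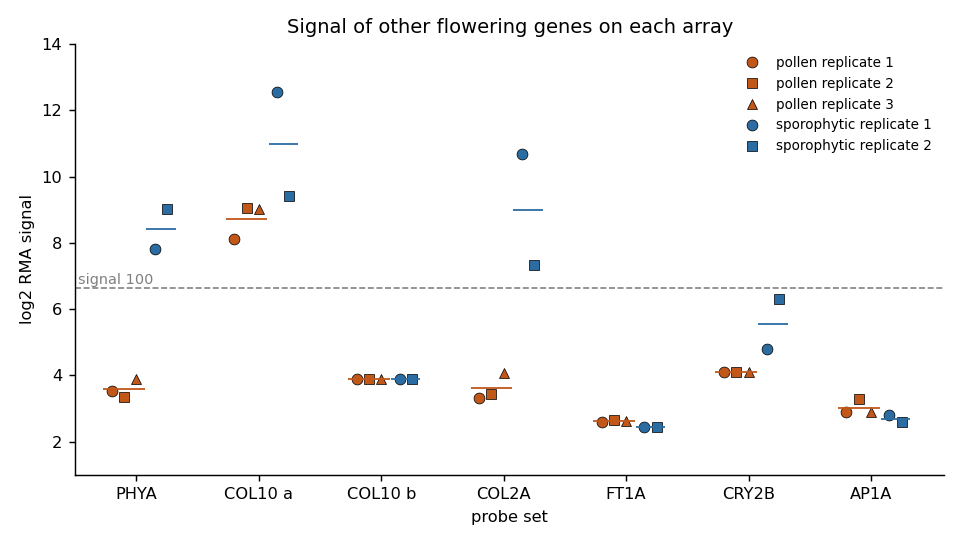
Log2 RMA signal (y axis) of other flowering genes (x axis) on the 3 pollen arrays (orange) and the 2 sporophytic arrays (blue), with a marker for each replicate number, lines at group means and a dashed line at a linear signal of 100. PHYA and COL2A are at 3.32 to 4.07 in pollen and at 7.32 to 10.69 in sporophytic tissues, and the sporophytic arrays of COL10 a, COL2A and CRY2B stand apart from each other.

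Among the other probe sets with a single gene symbol, those nearest to each probe set over the 5 arrays (Euclidean distance of log2 signals) were mostly genes without a name. For NMH7 a the nearest of 8674 was MYB99, at a distance of 1.07. MYB99, which the study's annotation matched to a MYB factor of Arabidopsis stamens, had a pollen mean of 8.75 ± 0.28 (SD, n = 3) and a sporophytic mean of 2.84 ± 0.04 (SD, n = 2). It was the second nearest to NMH7 b, at 1.02, behind LOC100306165 at 0.719, and LOC100777055 was the third for both. For NMH7 c the nearest was LOC100781085, at 0.518. SEP1 was nearest to LOC100803877 (0.714) and MADS28 to LOC100500506 (0.361), followed for MADS28 by GY2, a glycinin seed storage protein, at 0.376. GY2 had a pollen mean of 3.87 ± 0.26 (SD, n = 3) and a sporophytic mean of 2.68 ± 0.00 (SD, n = 2), so it too stayed under a signal of 100. With 5 arrays in 2 groups such nearness says little, since 570 of the named probe sets correlated with NMH7 a at a Pearson's r over 0.99.

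**Figure D4:**
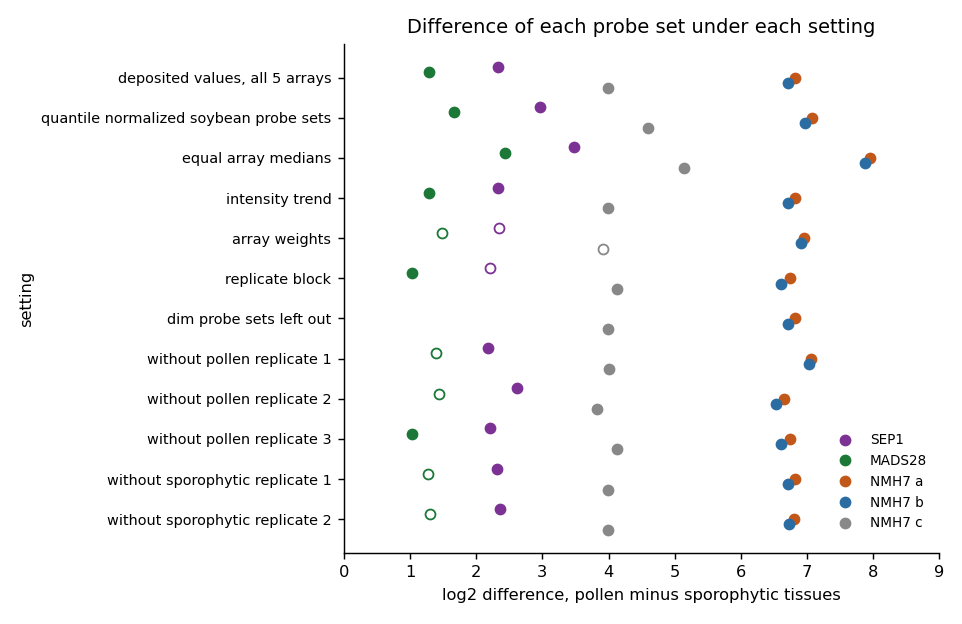
Log2 difference, pollen minus sporophytic tissues (x axis), of the SEP1, MADS28 and NMH7 probe sets under each setting (y axis), filled where it passed limma's test at an adjusted p under 0.05 and open where it did not. Differences of NMH7 a and NMH7 b run from 6.53 to 7.96, MADS28 runs from 1.03 to 2.44 with 5 open points, and the filter on dim probe sets leaves out SEP1 and MADS28.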

How the data were processed

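RNA of 3 pollen and 2 sporophytic samples was hybridised to 1 array each. The authors normalized the raw signals by RMA, and the deposited log2 values of 37593 soybean probe sets were used as given. The version of their software and the set of probe sets normalized are not given in the sources used here. Pollen was set against sporophytic tissues in limma 3.58.1 (R 4.3.3) with a linear model and empirical Bayes moderation, which had 3 residual and 0.854 prior degrees of freedom and a prior variance of 0.0107. Tests were two-sided, p-values were adjusted over all probe sets after Benjamini and Hochberg, and the threshold was 0.05. Dim probe sets were kept. The number of arrays limits the precision, and present calls were not used here.

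The members and gene lists were chosen with earlier results of these data known. Named genes were all member probe sets, the flowering list, AP1A (added later) and the 3 nearest patterns per probe set, of which the first are given. Symbols came from the array annotation. Its gene IDs were matched to the gene table for 8652 of 8677 probe sets. Sequences were not used here. Alternatives covered the scaling, array weights, a trend of the variance with intensity, the replicate number as a block, dim probe sets, a minimum fold, each array left out, the signal minimum and the measure of likeness. Plots were made in Python 3.11.15 (matplotlib 3.10.9).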

Additional observations from a re-analysis of the deposited data

How the results depend on the processing

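The genes were chosen on the contrast that these alternatives refit, so a direction or call that stays is no support for them. Under the alternatives run, their differences took 53 values from 1.03 to 7.96, and 8 were no longer called. With array weights, which gave the sporophytic arrays 0.0961 each against 1.89 to 10.7 in pollen, 2 of the 5 stayed called, and SEP1 (2.34), MADS28 (1.48) and NMH7 c (3.92) did not pass. With array weights over all probe sets 2182 were higher and 8350 were lower, against 7104 and 12969, and 0 flowering probe sets were lower. Without dim probe sets SEP1 and MADS28 were not tested, 3 of the 5 were called, and 3784 probe sets were higher and 8118 lower. Higher calls over all probe sets rose to 13917 with quantile normalization and to 20047 with equal medians. Among the flowering genes 1 (COL10 b) was then higher and 1 lower with quantile normalization, where 9940 of all probe sets were lower. With equal medians 2 were higher (COL10 b and FT1A). With an intensity trend 1 was higher (FT1A), where 9519 of all probe sets were. AP1A, which is not on the list, was also higher with equal medians (1.48). Setting the medians equal adds the same 1.15 to every difference. It took COL10 b from 0.0 to 1.15, FT1A from 0.16 to 1.31 and AP1A from 0.33 to 1.48. All of these stayed under a signal of 100 on every array of the deposited values. The cause of the other changes was not tested. Leaving out each array in turn gave 4 to 5 called members, differences of 2.17 to 2.62 for SEP1, 1.03 to 1.44 for MADS28, 6.65 to 7.06 for NMH7 a, 3.83 to 4.12 for NMH7 c and 6.53 to 7.03 for NMH7 b, with 0 to 1 higher and 1 to 4 lower flowering probe sets, and over all probe sets 4824 to 10172 higher and 10656 to 16633 lower. At a signal minimum of 200, NMH7 c reached it on 0 arrays, against 3 at 100. With Pearson's r in place of distance, 0 of the 3 nearest patterns were shared for 4 of the 5 probe sets and 1 for NMH7 b.

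No label pairs samples by their replicate number, and deviations of same-numbered arrays had correlations of 0.0242 and 0.0161. With the replicate number as a block, 4 of the 5 members stayed called, SEP1 (2.21) did not pass, 1 flowering probe set was lower, and 3511 probe sets were higher and 8634 lower.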
